A study of Homo sapiens with 36 samples.

Results

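The glia and Schwann cell genes described here were ERBB3, EGR2, FABP7, S100B, PMP22, MBP, BCAN and GFAP. They were taken by symbol from the authors' gene table, 8 of its 34687 genes. Of the 8, 6 gave a detection p under 0.05 on 3 arrays or more, which was the filter, and were tested among 22638 genes. S100B was above background on 1 of 36 arrays and GFAP on 0 of 36, and both were left out of the tests.

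Expression was measured on 36 Illumina beadchips, 12 groups of 3 arrays, in WA09, a long-established line of human embryonic stem cells, so that every group rests on 1 line. The cells were kept on mouse embryonic fibroblast feeders and plated on matrigel for differentiation. DSi cultures, sampled on days 3, 6, 8 and 11, received the BMP receptor inhibitor LDN-193189 at 100 nM and SB431542, which blocks activin, Nodal and TGF-beta receptors, at 10 µM. NC (neural crest) cultures of the same days received both and the GSK3 inhibitor CHIR 99021 at 3 µM. BE (melanocyte) cultures, sampled on days 8 and 11, received these 3 compounds with BMP4 at 25 ng/ml and endothelin 3 (EDN3) at 100 nM. Days 0 and 1 formed a group each. Labels of these groups give the pair LDN-193189 and SB431542 without a condition, and whether day 0 cells had received either is not stated. Replicate 1 of DSi day 3 has a title without the suffix found in the other DSi titles, whose meaning is not stated either. The titles of each replicate number share a prefix across the 12 groups, whose meaning is not stated. Whether replicates were separate cultures is not given, so the p-values reflect the spread among these arrays alone, and that spread may be technical.

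Glia are the supporting cells of the nervous system. In the peripheral nervous system they come from the neural crest: neuregulin from axons, read by ERBB3 with its partner ERBB2, keeps Schwann cell precursors alive, and EGR2 later turns on the genes of compact myelin. In the brain, radial glia carry FABP7, and astrocytes carry GFAP. Several of these genes are not limited to glia: ERBB3 and PMP22 are also used by epithelial, crest and pigment lineage cells, and the MBP gene also gives the golli transcripts found outside myelin.

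The mean raw signal of an array was 214.7 to 462.5, with 33.9 to 41.7% of probes detected. Arrays of a group correlated at 0.970 to 0.986, and 31 of the 36 were closest to an array of their own group. The label of the starting cells was checked against 7 stem cell markers: 6 of the 7 were above background on all 3 day 0 arrays, and NANOG was above background on none of the DSi or NC arrays of day 3. Of 8 neural crest markers, 8 were above background on all 3 arrays at NC day 11 and 2 at day 0. Of 7 pigment cell markers, 7 were above background on all 3 arrays at BE day 11, 5 at DSi day 11, 4 at NC day 11 and 2 at day 0. The 7 forebrain markers were above background on all 3 arrays at DSi day 11. The number of arrays limits the precision of every value below.

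Promoters of 5 of the 8 genes were listed in the RefSeq table of GRCh38.p14, with 10 starts among them. Those of the 4 genes that were higher at NC day 11 than at day 0 and have a listed promoter are shown, each from 250 bases before to 50 bases after the start, read along the gene's strand. They are chr6:122779466-122779765 on the plus strand for FABP7, chr10:62819118-62819417 on the minus strand for EGR2, chr17:15265277-15265576 on the minus strand for PMP22 and chr1:156641867-156642166 on the plus strand for BCAN. For EGR2 and PMP22, which have several listed starts, the start shown is the one whose window holds the motif ACAAAG. Capitals mark ACAAAG, the core letters bound by SOX factors, such as SOX10, a regulator of crest and glial genes.
FABP7: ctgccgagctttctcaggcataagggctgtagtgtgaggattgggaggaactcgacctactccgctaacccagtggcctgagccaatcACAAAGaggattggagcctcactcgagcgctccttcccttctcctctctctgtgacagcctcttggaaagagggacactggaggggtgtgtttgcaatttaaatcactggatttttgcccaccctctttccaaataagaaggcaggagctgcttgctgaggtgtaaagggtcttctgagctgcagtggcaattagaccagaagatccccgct
EGR2: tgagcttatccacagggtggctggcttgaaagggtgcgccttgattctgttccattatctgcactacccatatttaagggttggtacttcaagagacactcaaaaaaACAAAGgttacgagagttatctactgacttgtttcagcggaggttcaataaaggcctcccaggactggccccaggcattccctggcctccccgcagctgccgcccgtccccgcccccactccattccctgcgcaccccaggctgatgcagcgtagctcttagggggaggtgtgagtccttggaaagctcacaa
PMP22: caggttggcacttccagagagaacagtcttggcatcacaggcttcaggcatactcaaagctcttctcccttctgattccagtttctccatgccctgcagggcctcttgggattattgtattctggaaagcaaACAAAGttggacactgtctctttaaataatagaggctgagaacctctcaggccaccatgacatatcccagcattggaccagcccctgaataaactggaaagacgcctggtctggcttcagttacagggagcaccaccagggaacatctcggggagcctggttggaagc
BCAN: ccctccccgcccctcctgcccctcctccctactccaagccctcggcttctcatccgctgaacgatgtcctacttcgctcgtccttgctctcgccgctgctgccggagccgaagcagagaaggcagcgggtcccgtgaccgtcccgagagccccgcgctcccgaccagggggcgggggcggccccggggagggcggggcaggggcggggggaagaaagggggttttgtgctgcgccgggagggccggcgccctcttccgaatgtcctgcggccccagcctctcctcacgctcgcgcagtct
The motif ACAAAG, searched on both strands with its reverse CTTTGT, began 162 bases before the start in FABP7, 143 bases before it in EGR2 and 118 bases before it in PMP22, and was not found in the BCAN window. No other listed window of the members held it. The motif is common: 16.067% of the 35116 listed promoter windows of 300 bases hold it. As the EGR2 and PMP22 windows were picked for holding it, the finds shown cannot be set against that share. ATCAAAG, the letters of TCF and LEF factors, was in none of the members' windows and in 2.617% of all windows. CATGTG, an E-box bound by MITF, was in 1 window of another EGR2 start (chr10:62816317-62816616, minus strand, 114 bases before the start) and in 11.098% of all windows. A match is a description of the letters and no evidence of binding.

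Values below are log2 normalized signals of the brightest probe of each gene, with the SD over 3 arrays, and differences are log2 differences with the SE of the fit. That SE and the p-value rest on a spread per gene that the 12 groups share. They can thus understate or overstate the spread of the groups compared. A gene was said to differ, to rise or to fall where limma's Benjamini-Hochberg adjusted p, taken over all 22638 genes of the comparison, was under 0.05. Where a gene was above background on no array of the dimmer group, the change is given as "at least" a fold against the lowest signal above background, and the fitted difference is compressed by the offset added to dim signals. Such a fold compares group means and carries no sampling error. It is no call where the adjusted p was not under 0.05. In these bulk samples fewer cells of a type and less RNA per cell cannot be told apart.

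**Figure D1:**
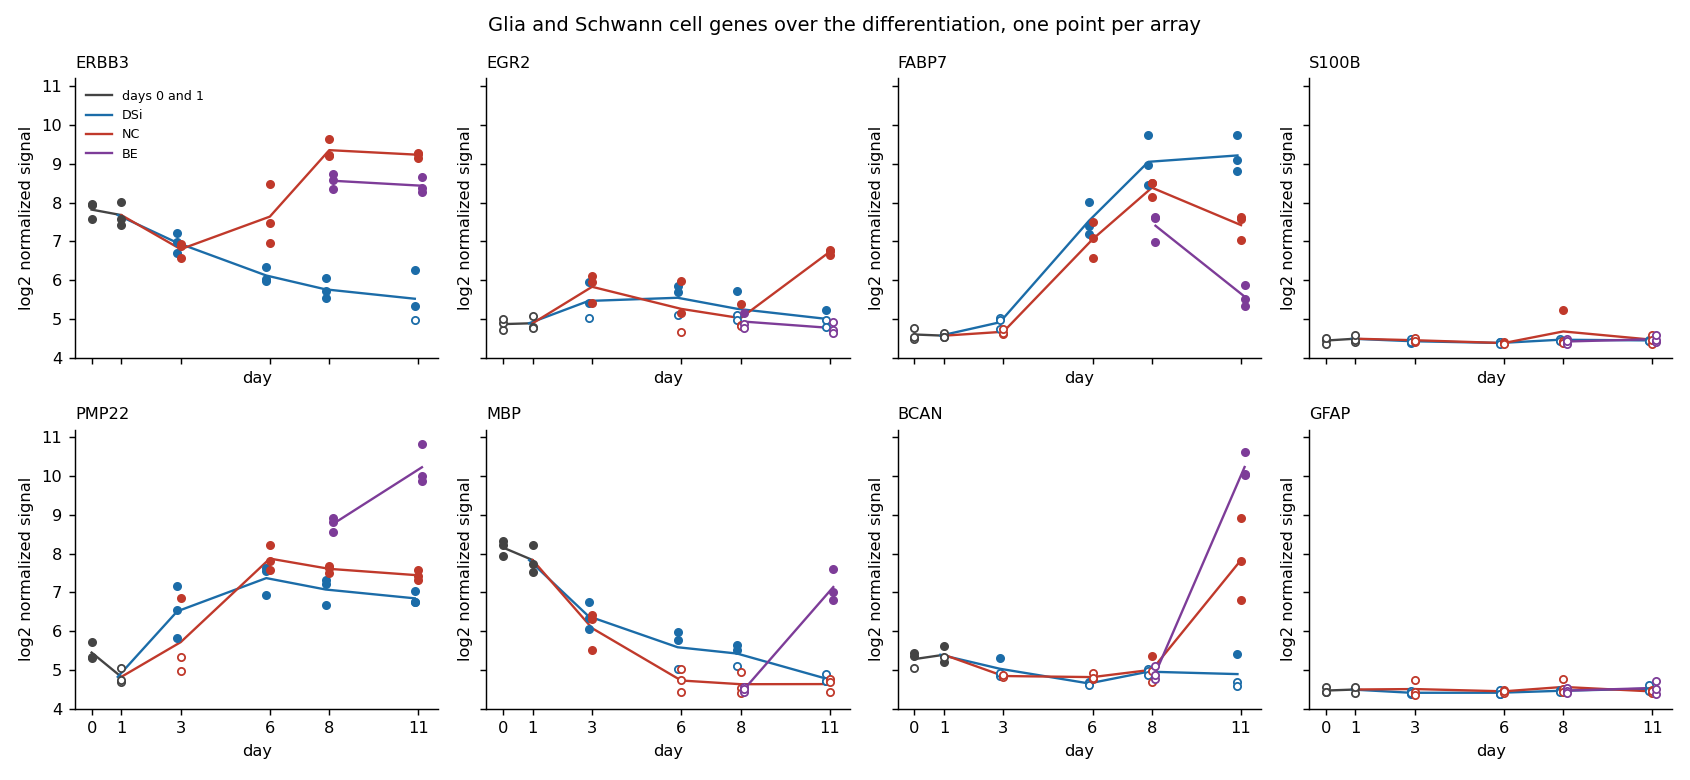
Log2 normalized signal (vertical axis) of the 8 genes against day (horizontal axis), 1 point per array, with lines through the means of days 0 and 1, DSi, NC and BE. Filled points are above background and open points are not; ERBB3 reaches 9.35 at NC day 8, PMP22 and BCAN reach 10.23 at BE day 11, and S100B and GFAP stay at background on nearly every array.

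ERBB3, the receptor through which Schwann cell precursors read neuregulin, fell in DSi and rose in NC. At day 0 it measured 7.93, 7.57 and 7.96, and at day 1 8.03, 7.42 and 7.58, which overlapped. In DSi the means were 6.96 ± 0.26 at day 3, 6.12 ± 0.20 at day 6, 5.76 ± 0.26 at day 8 and 5.52 ± 0.67 at day 11, where 2 of 3 arrays were above background. The fall from day 0 came to -0.85 at day 3 (SE 0.26, adjusted p = 0.0169) and -2.30 at day 11 (SE 0.26, adjusted p = 9.83e-10), and DSi and day 0 arrays did not overlap on any of the 4 days. The day 3 call was lost without day 0 replicate 1, day 0 replicate 3 or DSi day 3 replicate 3 (adjusted p up to 0.103). The step from DSi day 3 to day 6 was -0.84 (adjusted p = 0.0216), lost without DSi day 3 replicate 2 or DSi day 6 replicate 1 or 3 (up to 0.121) and under 5 of 9 other settings (up to 0.156).

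In NC, ERBB3 first fell as in DSi and then turned. At NC day 3 it measured 6.58, 6.94 and 6.88, which was -1.02 from day 0 (SE 0.26, adjusted p = 0.00327). At NC day 6 it measured 7.48, 8.47 and 6.96, a spread that covered the day 0 values. At NC day 8 it measured 9.21, 9.65 and 9.19, the highest mean of the 12 groups, and at NC day 11 it measured 9.28, 9.26 and 9.16. Both groups lay above every day 0 array, by 1.53 (SE 0.26, adjusted p = 6.67e-06) and 1.41 (SE 0.26, adjusted p = 2.54e-05), and overlapped each other. Between NC days 8 and 11 the difference was -0.12 (adjusted p = 0.894). The step from day 6 to day 8 was 1.71 (adjusted p = 1.13e-05). The step from day 3 to day 6 was 0.84 (adjusted p = 0.0149); it was lost without NC day 3 replicate 1 or NC day 6 replicate 2 (adjusted p up to 0.292) and with only these groups in the fit (0.0789).

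NC and DSi did not differ for ERBB3 at day 3 (-0.17, adjusted p = 0.999), and NC was higher by 1.52 at day 6 (adjusted p = 6.63e-05), by 3.59 at day 8 (adjusted p = 1.3e-14) and by 3.71 at day 11 (SE 0.26, adjusted p = 1.88e-15). From day 3 to day 11 the change differed between NC and DSi by 3.88 (SE 0.37, adjusted p = 6.24e-11). The neural crest markers moved with it: 8 of 8 were higher in NC than in DSi at day 11 (median 2.19), with a summed signal of 4247 to 5441 against 417.5 to 684.6, and SOX10, FOXD3 and PAX3 were above background on no DSi day 11 array. Their part in the ERBB3 result was not tested.

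In BE, ERBB3 measured 8.59, 8.74 and 8.35 at day 8 and 8.39, 8.27 and 8.65 at day 11, above every day 0 array and below every array of NC days 8 and 11. BE was above DSi by 2.80 at day 8 (adjusted p = 1.93e-11) and by 2.91 at day 11 (adjusted p = 3.28e-12). Against NC it was lower by -0.80 at day 11 (SE 0.26, adjusted p = 0.0458), a call lost on leaving out any of 5 of the 6 arrays, all but BE day 11 replicate 3 (adjusted p up to 0.174), and under 3 of 9 other settings (median scaling, no detection filter and the mean of probes, up to 0.458). At day 8 BE minus NC was -0.79 (adjusted p = 0.141), and 3 settings brought it under the threshold. Against day 0 the difference was 0.74 at BE day 8 (adjusted p = 0.0267), lost without day 0 replicate 2, BE day 8 replicate 1 or BE day 8 replicate 2 (up to 0.129) and under 3 of the 9 settings (up to 0.679). At BE day 11 it was 0.62 (adjusted p = 0.0746), under the threshold in 6 of the 9.

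The dimmer probes of ERBB3 did not follow the brightest one everywhere. The second probe was above background on 18 of 36 arrays and was at least 2.75-fold higher in NC than in DSi at day 11 (adjusted p = 1.17e-06), with no DSi array above background. Against day 0 it gave -0.12 at NC day 8 (adjusted p = 0.839) and 0.61 at NC day 11 (adjusted p = 0.108). Between BE days 8 and 11 it rose by 1.14 (adjusted p = 0.00512), where the brightest probe gave -0.13 (adjusted p = 0.863). For BE minus NC at day 11 it gave 0.10 (adjusted p = 0.931), where the brightest probe gave -0.80. Which transcripts the probes read is not known here. In the order of the brightest probe's means, NC days 8 and 11 came first, then BE days 8 and 11, then days 0 and 1, NC day 6, DSi day 3 and NC day 3, and DSi days 6, 8 and 11 last. Neighbours in this order overlapped, except between NC day 11 and BE day 8, between BE day 11 and day 0, and between NC day 3 and DSi day 6.

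EGR2, the zinc finger factor that drives myelination in Schwann cells and is also an early response gene in other cells, was highest at NC day 11. It measured 6.79, 6.76 and 6.64 there, above every array of the other 11 groups. At day 0 it measured 4.72, 4.89 and 4.99, none above background, so the rise was at least 2.95-fold (1.86, SE 0.27, adjusted p = 2.81e-07). NC day 8, with values of 4.86, 4.83 and 5.38 and 1 array above background, was lower by 1.71 (adjusted p = 1.05e-05).

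The other conditions did not share the EGR2 level of NC day 11. At DSi day 11 EGR2 measured 5.23, 4.98 and 4.79, with 1 array above background, and NC was higher by 1.73 (SE 0.27, adjusted p = 3.85e-06). At BE day 11 it measured 4.73, 4.92 and 4.64, with none above background, and was at least 3.03-fold lower than NC (-1.97, SE 0.27, adjusted p = 3.47e-07). From day 8 to day 11 EGR2 changed less in BE than in NC by -1.88 (SE 0.38, adjusted p = 0.00124). Of 9 tested neuron markers 8 were also higher in NC than in DSi at day 11 (median 2.10), with a summed signal of 11116 to 17158 in NC, 1705 to 2947 in DSi and 2201 to 3063 in BE. Their part in the EGR2 result was not tested.

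An earlier rise of EGR2 was seen at NC day 3, with values of 6.12, 5.40 and 5.96, at least 1.58-fold above day 0 (0.96, SE 0.27, adjusted p = 0.00781, and 0.0549 without NC day 3 replicate 1). DSi day 3 measured 5.96, 5.01 and 5.42, which was not called against day 0 (at least 1.23-fold higher by the means, adjusted p = 0.14). NC and DSi overlapped at day 3 (0.37, adjusted p = 0.934). DSi day 6 was not called either (at least 1.3-fold above day 0 by the means, adjusted p = 0.0571). That difference passed without DSi day 6 replicate 1 (0.0219) and under 2 of the 9 settings. Over days 3 to 11 the change was larger in NC than in DSi by 1.36 (SE 0.38, adjusted p = 0.0216), lost without DSi day 3 replicate 1, DSi day 11 replicate 3 or NC day 3 replicate 2 (up to 0.0995) and with only these groups in the fit (0.096). NC day 6 measured 5.14, 5.97 and 4.66 and BE day 8 5.16, 4.87 and 4.76, each overlapping day 0, and no array of day 1 was above background. EGR2 has 1 probe.

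FABP7, the brain lipid-binding protein of radial glia that is also found in Schwann cell precursors, rose in all conditions after day 3. It was above background on no array of days 0, 1 and 3. In DSi it measured 7.39, 7.18 and 8.01 at day 6, 8.46, 8.96 and 9.73 at day 8, and 9.09, 9.73 and 8.82 at day 11. Against day 0 (4.49, 4.54 and 4.77) this came to at least 5.14-fold at day 6, at least 14.7-fold at day 8 and at least 16.5-fold at day 11. The fitted difference at DSi day 11 was 4.62 (SE 0.27, adjusted p = 2.14e-18), and both the step from day 3 to day 6 (at least 5.10-fold, adjusted p = 5.33e-10) and that to day 8 (1.52, adjusted p = 0.000691) passed. Days 8 and 11 of DSi overlapped (0.16, adjusted p = 0.837).

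In NC, FABP7 peaked at day 8 and fell by day 11. It measured 6.58, 7.09 and 7.49 at NC day 6, 8.13, 8.51 and 8.51 at NC day 8, and 7.04, 7.64 and 7.58 at NC day 11. These levels were at least 3.69-fold (day 6), at least 9.29-fold (day 8) and at least 4.76-fold (day 11) above day 0. The fall from day 8 to day 11 was -0.97 (SE 0.27, adjusted p = 0.0172), with no overlap of the arrays, and was lost without NC day 8 replicate 2, NC day 8 replicate 3 or NC day 11 replicate 1 (up to 0.133). At day 11 NC was below DSi by -1.80 (SE 0.27, adjusted p = 1.92e-06), without overlap, while at day 6 (-0.48, adjusted p = 0.42) and day 8 (-0.67, adjusted p = 0.166) the arrays of both conditions overlapped. The day 8 difference passed without DSi day 8 replicate 1 (0.0435). NC changed less than DSi from day 3 to day 11, by -1.55 (SE 0.38, adjusted p = 0.00661).

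FABP7 was lowest in BE among the day 11 conditions. It measured 6.99, 7.60 and 7.62 at BE day 8 and 5.33, 5.88 and 5.52 at BE day 11, a fall of -1.83 (SE 0.27, adjusted p = 3.02e-06). At day 11 BE was below NC by -1.84 (SE 0.27, adjusted p = 1.51e-06) and below DSi by -3.64 (SE 0.27, adjusted p = 1.16e-14), and the arrays of the 3 conditions did not overlap. At day 8 BE was below NC by -0.98 (adjusted p = 0.0437), lost on leaving out any one of the 6 arrays (0.0565 to 0.307) and without a detection filter (0.0524), and below DSi by -1.65 (adjusted p = 1.26e-05). BE day 11 was still at least 1.33-fold above day 0 (0.98, adjusted p = 0.00434), lost with the authors' values, without background correction and with an offset of 50 (0.0575 to 0.1). At day 11 the 7 forebrain markers were also higher in DSi: 7 of 7 were lower in NC (median -4.09), with a summed signal of 9412 to 13480 in DSi, 402.4 to 709.6 in NC and 388.5 to 542.2 in BE, and LHX2 and SIX3 were above background on no NC or BE array. At NC day 8, where FABP7 averaged 8.38, their summed signal was 688.3 to 734.7. Their part in the FABP7 result was not tested.

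S100B, the calcium-binding protein of Schwann cells and astrocytes, and GFAP, the intermediate filament of astrocytes, gave no level to compare. The 1 array on which S100B was above background was NC day 8 replicate 3, at 5.22 with a detection p of 0.0325. The group means of S100B lay between 4.38 and 4.68, and those of GFAP between 4.41 and 4.56. Each gene has 1 probe, and a level below the arrays' background cannot be told from none.

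PMP22, the membrane protein of peripheral compact myelin that is also made by many other growing cells, rose in all conditions and was highest in BE. At day 0 it measured 5.32, 5.72 and 5.30, and at day 1 4.69, 4.74 and 5.04, with no array above background. The difference was not called (at least 1.12-fold lower by the means, adjusted p = 0.305). In DSi the means were 6.51 ± 0.67 at day 3, 7.37 ± 0.37 at day 6, 7.07 ± 0.34 at day 8 and 6.85 ± 0.17 at day 11. In NC they were 5.72 ± 0.99 at day 3, with 1 array above background, 7.87 ± 0.33 at day 6, 7.61 ± 0.09 at day 8 and 7.44 ± 0.12 at day 11. The NC rise fell between days 3 and 6 (2.15, SE 0.30, adjusted p = 4.53e-07), and the 3 later NC groups overlapped in sequence. Against day 0 the differences at day 11 were 1.40 in DSi (SE 0.30, adjusted p = 0.000302, and 0.151 with the authors' values) and 1.99 in NC (SE 0.30, adjusted p = 7.97e-07).

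From DSi day 3 to day 6 PMP22 gained 0.86 (adjusted p = 0.0504), which passed with the replicate number as a block (0.0306) and without DSi day 3 replicate 1 or DSi day 6 replicate 2. DSi day 3 already lay above day 0 for PMP22 (1.06, adjusted p = 0.0101), with values of 7.16, 5.83 and 6.55. Without DSi day 3 replicate 1, the array whose title lacks the suffix, the adjusted p was 0.14, and 3 of the 9 settings also lost the call (up to 0.396). NC day 3, with values of 6.85, 4.97 and 5.34, gave 0.27 against day 0 (adjusted p = 0.651) and -0.79 against DSi day 3 (adjusted p = 0.487). Without NC day 3 replicate 1 the latter became -1.36 (adjusted p = 0.011). NC and DSi did not differ at day 6, 8 or 11 (0.50, 0.53 and 0.59, adjusted p = 0.465, 0.427 and 0.262), although their arrays did not overlap at days 8 and 11. PMP22 gained more in NC than in DSi from day 3 to day 11, by 1.39 (SE 0.43, adjusted p = 0.0454), a call lost under 7 of the 9 settings (adjusted p up to 0.339) and on leaving out any of 9 of the 12 arrays, all but DSi day 3 replicate 2, DSi day 11 replicate 3 and NC day 3 replicate 1 (adjusted p up to 0.193).

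In BE, PMP22 measured 8.91, 8.82 and 8.55 at day 8 and 10.00, 9.87 and 10.82 at day 11, and every BE array of either day lay above every array of days 0 and 1, DSi and NC. BE day 11 was above day 0 by 4.78 (SE 0.30, adjusted p = 2.63e-17), above NC day 11 by 2.79 (SE 0.30, adjusted p = 1.42e-09) and above DSi day 11 by 3.38 (SE 0.30, adjusted p = 3.65e-12). BE day 8 was above day 0 by 3.31 (adjusted p = 2.76e-12) and above DSi day 8 by 1.69 (adjusted p = 6.08e-05). Against NC day 8 it was higher by 1.15 (adjusted p = 0.0305), lost on leaving out any one of the 6 arrays (0.0522 to 0.14) and under 2 of the 9 settings (up to 0.258). From day 8 to day 11 PMP22 rose by 1.47 in BE (adjusted p = 0.000653), more than in NC by 1.63 (SE 0.43, adjusted p = 0.0239), a difference lost without NC day 8 replicate 1 or 3, NC day 11 replicate 1 or 2, BE day 8 replicate 3 or BE day 11 replicate 3 (up to 0.129).

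A second probe of PMP22 also rose in BE, but was above background on no DSi or NC array. The second probe was above background on 5 of 36 arrays, 2 at BE day 8 and 3 at BE day 11. It passed the filter through these BE arrays alone, so its tests against groups at background add no separate support. At BE day 11 it was at least 2.61-fold above day 0 (adjusted p = 2.71e-12) and at least 2.67-fold above NC day 11 (adjusted p = 4.68e-12). No array of day 0, DSi or NC was above background for it. The third probe was above background on 0 arrays.

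**Figure D2:**
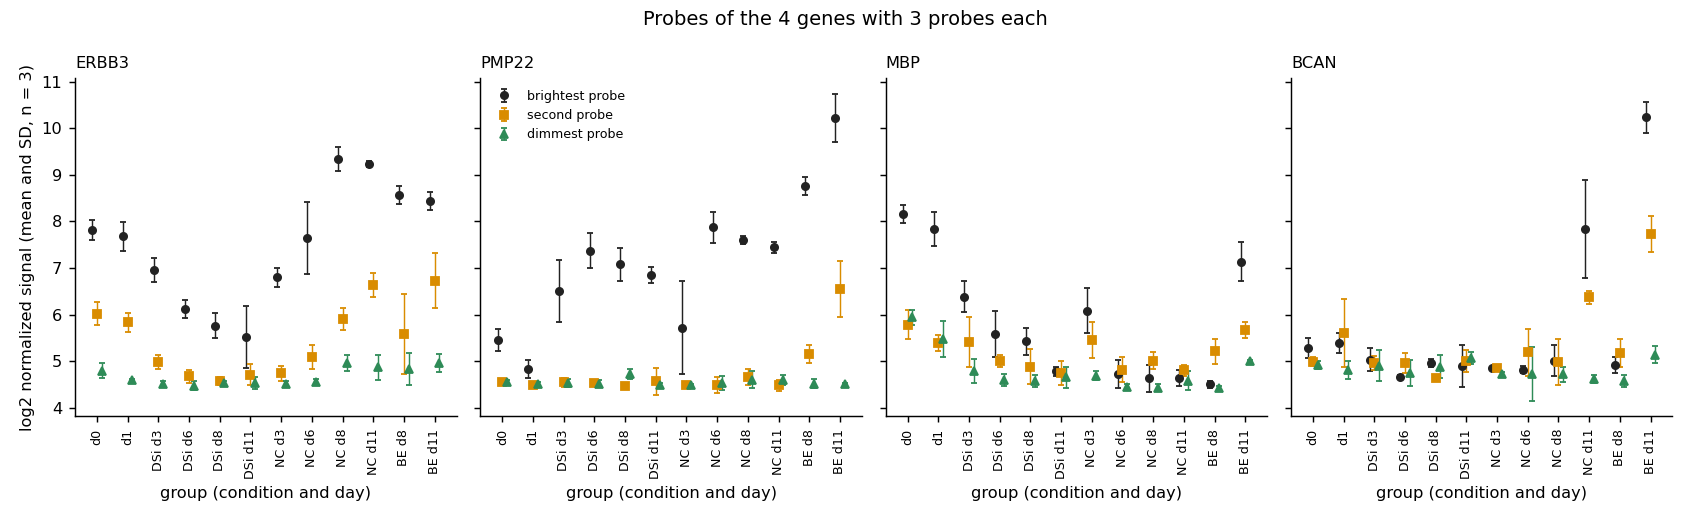
Mean log2 normalized signal with SD (vertical axis, n = 3 arrays) of the 3 probes of ERBB3, PMP22, MBP and BCAN in each of the 12 groups (horizontal axis). The second probe of PMP22 leaves background in BE, to 6.55 at day 11, and the second probe of BCAN reaches 6.37 at NC day 11 and 7.73 at BE day 11.

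MBP, whose classic products hold the layers of myelin together, was highest at days 0 and 1. It measured 7.94, 8.22 and 8.31 at day 0 and 7.73, 8.23 and 7.54 at day 1. At DSi day 3 it averaged 6.39 ± 0.34 and at NC day 3 it measured 6.41, 6.30 and 5.52, and every day 3 array lay below those of days 0 and 1. At day 3 it was down by -1.77 in DSi (SE 0.28, adjusted p = 2.67e-06) and by -2.08 in NC (SE 0.28, adjusted p = 8.33e-08). From day 6 on no NC array was above background, and by day 11 no DSi array was. The falls from day 0 were at least 8.11-fold at NC day 11 (-3.52, adjusted p = 1.61e-14), at least 7.95-fold at DSi day 11 (-3.38, adjusted p = 6.69e-14) and at least 7.96-fold at BE day 8 (-3.65, adjusted p = 6.34e-15).

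MBP then returned in BE. At BE day 8 it measured 4.43, 4.57 and 4.51, none above background, and at BE day 11 it measured 6.80, 7.61 and 7.01. The rise was at least 3.93-fold (2.64, SE 0.28, adjusted p = 7.7e-10). BE day 11 was at least 4.0-fold above NC day 11 (2.50, adjusted p = 1.61e-09), where MBP measured 4.44, 4.77 and 4.69, and at least 3.92-fold above DSi day 11 (2.36, adjusted p = 4.15e-09), where it measured 4.72, 4.90 and 4.71. BE and NC differed in their change from day 8 to day 11 by 2.63 (SE 0.39, adjusted p = 5.43e-06). BE day 11 stayed below day 0 by -1.02 (SE 0.28, adjusted p = 0.00321), without overlap.

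In DSi, MBP measured 5.76, 5.97 and 5.03 at DSi day 6 and 5.64, 5.53 and 5.10 at DSi day 8, with 2 arrays above background on each day. No NC array of these days and no BE day 8 array was above background, so the differences are given as bounds. At day 6 the arrays overlapped and NC was not called lower (at least 1.32-fold by the means, adjusted p = 0.0563). The difference passed with the replicate number as a block (0.0227) and without DSi day 6 replicate 3 or NC day 6 replicate 2. At day 8 NC was not called lower either (at least 1.22-fold by the means, adjusted p = 0.0786, and 0.0353 with the block). BE day 8 was at least 1.20-fold below DSi day 8 (adjusted p = 0.0201), lost without DSi day 8 replicate 1 or 2 or BE day 8 replicate 1 or 3 (up to 0.112) and under 3 of the 9 settings (up to 0.449). The step from DSi day 3 to day 6 (-0.80, adjusted p = 0.042) was lost without DSi day 3 replicate 1 or 2 or DSi day 6 replicate 1 or 3 (up to 0.315) and under 6 of the 9 settings (up to 0.179).

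Both other probes of MBP fell from day 0 to NC day 11, at least 1.74-fold (adjusted p = 1.7e-08) and at least 1.56-fold (adjusted p = 0.0014). The first was above background on 5 arrays, 3 at day 0 and 2 at day 1, and on no BE array. It passed the filter only through these groups, where it is high, so its test adds no separate support for the fall. The other was at least 1.45-fold higher at BE day 11 than at NC day 11 (adjusted p = 0.0145), but its difference from BE day 8 did not pass (0.46, adjusted p = 0.282). Whether the probes read classic or golli transcripts is not known here.

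BCAN, which encodes brevican, a proteoglycan of the matrix made by astrocytes and oligodendrocyte precursors, rose at day 11 in NC and BE. No group before day 11 had a mean above 5.39, though 2 of 3 arrays were above background at day 0 and 2 of 3 at day 1. At NC day 11 it measured 7.81, 6.79 and 8.91, and at BE day 11 10.03, 10.04 and 10.62. DSi day 11 measured 4.69, 5.42 and 4.57, with 1 array above background. Every NC day 11 array lay above every array of DSi day 11, and every BE day 11 array above every NC day 11 array.

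From day 8 to day 11 BCAN rose by 2.83 in NC (SE 0.30, adjusted p = 1.2e-09) and at least 33.5-fold in BE (5.31, SE 0.30, adjusted p = 3.69e-18). The SE comes from the spread shared by the 12 groups, while the NC day 11 arrays alone had an SD of 1.06. Precision is thus overstated for comparisons with NC day 11. At day 11 NC was above DSi by 2.94 (adjusted p = 1.69e-10), BE was above NC by 2.40 (adjusted p = 4.23e-08) and BE was above DSi by 5.34 (adjusted p = 1.18e-18). Against day 0 NC day 11 was higher by 2.56 (adjusted p = 1.97e-09) and BE day 11 by 4.95 (adjusted p = 5.25e-18). Over days 3 to 11 BCAN gained more in NC than in DSi by 3.13 (SE 0.43, adjusted p = 5.53e-07), and over days 8 to 11 more in BE than in NC by 2.48 (SE 0.43, adjusted p = 9.08e-05). The second probe, above background on no day 0 array, was at least 2.30-fold higher at NC day 11 (adjusted p = 8.8e-05) and at least 5.91-fold higher at BE day 11 (adjusted p = 3.41e-11). The dimmest probe was above background on 6 of 36 arrays, none at day 0 or NC day 11, and passed the test in neither comparison (adjusted p = 0.312 and 0.521).

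**Figure D3:**
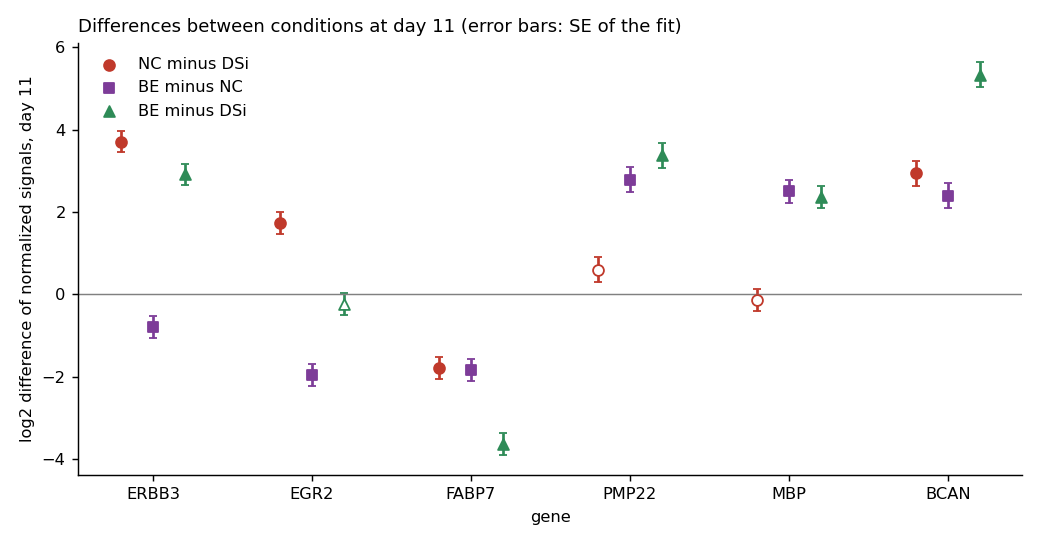
Log2 difference of normalized signals at day 11 (vertical axis) with the SE of the fit for the 6 tested genes (horizontal axis), for NC minus DSi, BE minus NC and BE minus DSi. Filled symbols have an adjusted p under 0.05; PMP22, MBP and BCAN lie above 0 and EGR2, FABP7 and ERBB3 below 0 in BE minus NC.

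Read side by side at day 11, the tested genes split in the comparison of BE with NC. PMP22, MBP and BCAN were higher in BE and ERBB3, EGR2 and FABP7 lower, so that 6 of the 6 tested differed, beside 8.8% of all genes. The ERBB3 call was lost on leaving out any of 5 of the 6 arrays, and its second probe gave 0.10 (adjusted p = 0.931). NC differed from DSi at day 11 in 4 of the 6, ERBB3, EGR2 and BCAN higher and FABP7 lower (11.1% of all genes), and BE from DSi in 5 (16.6%). These counts describe the 6 that passed the filter. FABP7 passed it only through groups in which it is high, as all 24 of its arrays above background were of day 6 or later. MBP was above background on 19 arrays, all in its brighter groups: days 0, 1 and 3, DSi days 6 and 8 and BE day 11. EGR2 was above background on 16 arrays, 3 of them at NC day 11. BCAN was above background on 13, 3 of them at NC day 11 and 3 at BE day 11. The pigment cell markers rose with the first set of genes: 7 of 7 were higher in BE than in NC at day 11 (median 4.31), with a summed signal of 17403 to 20265 in BE and 2999 to 4609 in NC. Of the 8 fibroblast and mesenchyme markers 4 were higher in BE (summed signal 5108 to 6731 against 3027 to 4084). Of the neuron markers 8 of 9 were lower in BE than in NC (median -3.88). No marker of these lists was below background on all arrays of either group except MAPT in BE. Their part in the results for the 6 genes was not tested.

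At earlier days fewer of the 6 differed between conditions. NC and DSi differed in 0 at day 3 by limma (1 at an unadjusted p under 0.05, PMP22; 0.49% of all genes), in ERBB3 alone at day 6 (5.41%) and in ERBB3 alone at day 8 (6.71%). BE and NC differed at day 8 in 2, PMP22 and FABP7 (1.86%), both lost when any one array was left out. BE and DSi differed at day 8 in 4 (10.6%), ERBB3 and PMP22 higher and FABP7 and MBP lower. The change from day 3 to day 11 differed between NC and DSi for 5 of the 6, all but MBP (5.46%), and that from day 8 to day 11 between BE and NC for 4, all but ERBB3 and FABP7 (2.41%).

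The comparisons with day 0 share its 3 arrays and are not independent of each other. At day 1 0 of the 6 differed by limma (1 at an unadjusted p under 0.05, PMP22), beside 4.42% of all genes. In DSi 3 differed at day 3 (16.8%) and 4 at days 6, 8 and 11 (27.2, 27.1 and 27.4%): ERBB3 and MBP fell, PMP22 rose, and FABP7 was higher from day 6. In NC 3 differed at day 3 (19.1%), 3 at day 6 (29.8%), 4 at day 8 (28.5%) and 6 at day 11 (29.3%), where MBP was lower and the other 5 were higher. In BE 4 differed at day 8 (28.7%) and 4 at day 11 (28.8%). Over the steps within a condition, DSi gave 3 from day 3 to 6 (14.5%), 1 from day 6 to 8 (0.963%) and 0 from day 8 to 11 (6.9%; 1 at an unadjusted p under 0.05, MBP). NC gave 4 (22.5%), 2 (5.22%) and 3 (7.92%) over the same steps, and BE gave 4 from day 8 to 11 (9.63%).

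Among themselves the 6 genes had little in common over the 12 group means. FABP7 and MBP ran opposite to each other (Pearson r = -0.80), PMP22 and BCAN gave 0.57, and the other pairs lay between -0.42 and 0.46. These values are a description over 12 means that share arrays and scaling. The genes with the most similar course over the 12 means were GAP43 (0.953), COL23A1 (0.948) and MPRIP (0.910) for ERBB3, and PHF21B (0.928), GRM2 (0.893) and ATP8A1 (0.890) for EGR2. For FABP7 they were ZBTB16 (0.975), RIDA (0.973) and GUCY1B1 (0.967), the last 2 listed by the authors under older symbols. For PMP22 they were BRI3P1 (0.961), LMBRD1 (0.954) and NFIL3 (0.943), for MBP IFRD2 (0.974), FHOD1 (0.968) and CDC42BPB (0.958), and for BCAN FSTL5 (0.995), SLC30A8 (0.978) and ASCL4 (0.977). GAP43, a growth cone protein also present in Schwann cell precursors, is itself on the precursor list below.

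Other genes of Schwann cell precursors and satellite glia, a list of 21 of which 20 were tested, were higher in NC more often than lower. Against day 0, 11 rose and 1 fell at NC day 11 (median 0.85, beside -0.02 over all genes, of which 29.3% differed). The figures were 8 and 3 at BE day 11 (median 0.38, with 28.8% of all genes) and 7 and 3 at DSi day 11 (median 0.04, with 27.4%). SOX10, the master factor of crest and peripheral glia, was at least 34.2-fold higher at NC day 11 and at least 30.8-fold at BE day 11. NCAM1, an adhesion molecule, was at least 5.32-fold higher in NC and at least 2.94-fold in BE. ERBB2, the partner of ERBB3 and the 1 gene that fell, was lower by -1.68 (SE 0.14) at NC day 11 and is named outside the naming rule, after its values were seen. NRG1, which encodes neuregulin, rose by 2.22 (SE 0.28, 2 of 3 day 0 arrays above background) at DSi day 11, where ERBB3 had its lowest mean.

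TTYH1, an anion channel gene of neural progenitors, rose by 6.20 (SE 0.21) at DSi day 11, by 5.04 in NC and by 1.84 in BE. POU3F2, a POU factor of neural precursors, rose by 1.96 in DSi. For TTYH1 and POU3F2 only 1 of 3 day 0 arrays was above background, so their differences from day 0 are compressed by the offset. NC was above DSi at day 11 for 12 of the 20 and below it for 5 (median 0.97), while 11.1% of all genes differed. BE was above NC for 1, ERBB2, and below it for 7 (median -0.33), while 8.8% of all genes differed. Among the 7 were TTYH1 (-3.20) and the artemin receptor gene GFRA3 (-2.51, 1 of 3 BE arrays above background). The adhesion molecules L1CAM (-1.88, 2 of 3) and CADM1 (-1.22) were also among them. The neural crest marker list shares SOX10, NGFR and FOXD3 with this list, and 6 of its 8 genes were higher at NC day 11 and 6 at BE day 11 than at day 0.

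Of 17 further myelin genes 13 were tested, and most did not pass the test. At day 11 against day 0, 0 rose and 3 fell in DSi, 2 rose and 3 fell in NC, and 2 rose and 3 fell in BE (medians -0.28, -0.17 and 0.03), beside 27.4, 29.3 and 28.8% of all genes. GLDN, gliomedin of the nodes of Ranvier, was at least 1.96-fold higher in NC and at least 4.74-fold in BE, where it exceeded NC by 1.28 (SE 0.25). The gap junction gene GJB1 was at least 1.21-fold higher in BE than at day 0, and above NC by 0.55, with 1 of 3 NC arrays above background. CLDN11, a tight junction protein of myelin, changed by -1.19 in DSi, -1.38 in NC and -1.28 in BE (SE 0.34). UGT8, which makes the myelin lipid galactosylceramide, changed by -1.29, -1.15 and -1.59 (SE 0.33), with 2, 2 and 1 of 3 arrays above background. PLLP, plasmolipin, was at least 1.41-fold lower in DSi, at least 1.44-fold in NC and at least 1.45-fold in BE. NC was above DSi for 1 gene and below it for 0, while 11.1% of all genes differed. BE was above NC for 2, GLDN and GJB1, and below it for 0, beside 8.8% of all genes.

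**Figure D4:**
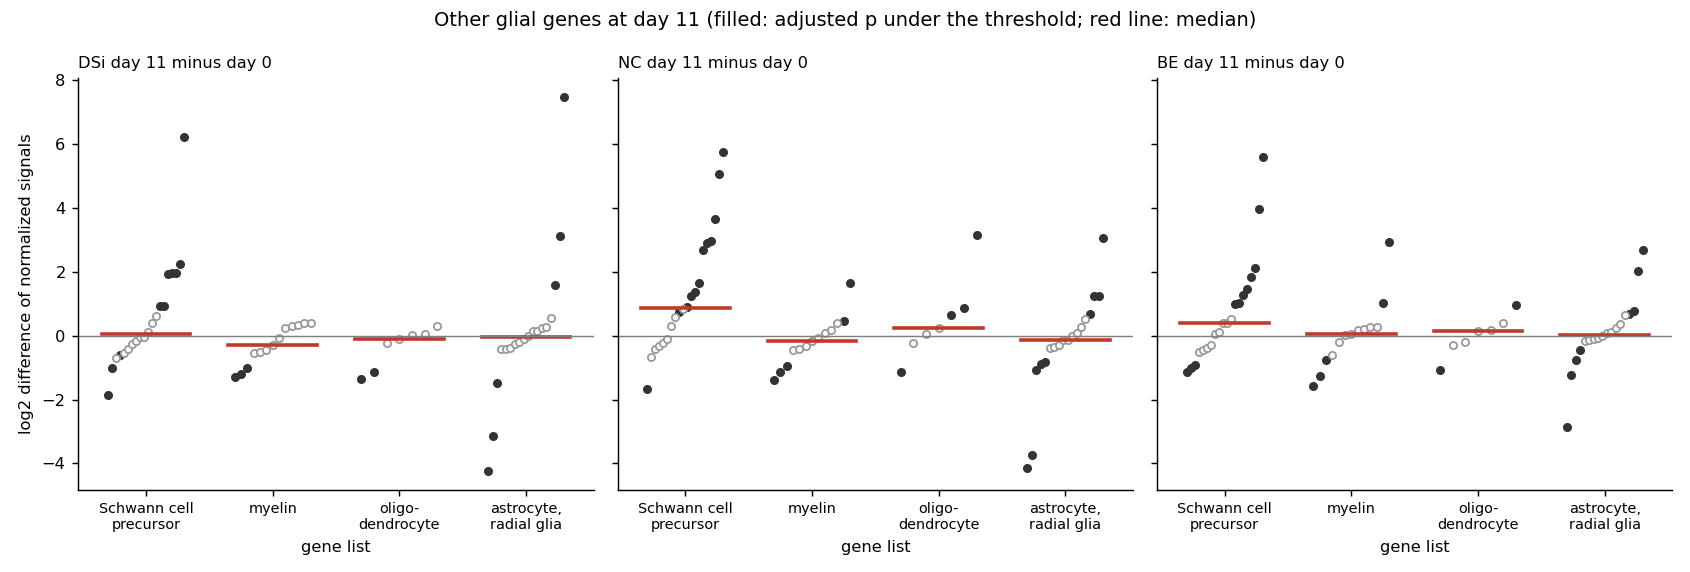
Log2 difference of normalized signals from day 0 (vertical axis) for the tested genes of 4 glial lists (horizontal axis) at DSi, NC and BE day 11, 1 point per gene, filled where the adjusted p was under 0.05, with the list's median as a red line. The median of the Schwann cell precursor list lies at 0.85 in NC and 0.04 in DSi, and those of the myelin list between -0.28 and 0.03.

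Of 10 oligodendrocyte lineage genes 7 were tested. OLIG2, the basic helix-loop-helix factor of this lineage and of motor neuron progenitors, rose by 3.15 (SE 0.20, 1 of 3 day 0 arrays above background) at NC day 11 and was at least 8.20-fold lower in BE. OLIG1 was at least 1.13-fold higher at NC day 11. SOX8, a relative of SOX10, rose by 0.86 in NC and by 0.97 in BE and fell by 1.14 in DSi (SE 0.27). ZNF488, an oligodendrocyte regulator, changed by -1.14 in NC and -1.09 in BE (SE 0.26, 1 of 3 arrays above background in each) and was at least 1.90-fold lower in DSi. In all 3 rose and 1 fell in NC, 1 and 1 in BE and 0 and 2 in DSi, with medians of 0.24, 0.13 and -0.10, beside 29.3, 28.8 and 27.4% of all genes. NC was above DSi for 3 and below it for 0, while 11.1% of all genes differed. BE was above NC for 0 and below it for 1, beside 8.8% of all genes.

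Of 22 astrocyte and radial glia genes 18 were tested, and the direction was mixed. At day 11 against day 0, 3 rose and 3 fell in DSi, 4 and 5 in NC and 4 and 4 in BE (medians -0.06, -0.14 and 0.03), beside 27.4, 29.3 and 28.8% of all genes. HES5, the Notch target of neural progenitors, was at least 141-fold higher at DSi day 11 and at least 1.90-fold at NC day 11. SOX9, a factor of crest and gliogenic progenitors, was at least 6.41-fold higher in DSi, at least 6.17-fold in NC and at least 2.97-fold in BE. NFIB, a gliogenic factor, changed by -3.14 in DSi, -3.72 in NC and -2.87 in BE (SE 0.28). CD44, a hyaluronan receptor, was at least 11.6-fold lower in DSi and at least 11.8-fold lower in NC than at day 0, and at least 15.1-fold higher in BE than in NC. HOPX, a homeodomain protein of outer radial glia, was at least 3.69-fold higher at BE day 11 than at day 0 and at least 3.77-fold higher than at NC day 11. NES, the filament nestin of neural progenitors, fell by 1.24 at BE day 11 (SE 0.19). NC was above DSi for 2 and below it for 3, while 11.1% of all genes differed. BE was above NC for 4 and below it for 1, beside 8.8% of all genes.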

How the data were processed

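Total RNA of 36 samples was hybridised to Illumina beadchips. The deposited probe table holds, per the file headers, an intensity (average signal) and a detection p-value for each probe and array, and these intensities had not been normalized. A gene table deposited by the authors holds their own processed log2 values, whose scale was set against the scanner values. The submitters' processing notes name Partek with no version or role. Gene names reached the probes by matching the authors' gene table to the probe table: 34454 of 34687 genes were tied, 33934 of them within a root mean square of 0.002.

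Signals were background corrected (normexp, offset 16) and quantile normalized, probes were kept if 3 or more arrays gave a detection p under 0.05, and the brightest probe stood for a gene. limma 3.58.1 in R 4.3.3 was fitted on the log2 values of 22638 genes with a mean for each of 12 groups and Benjamini-Hochberg adjustment per comparison (26 comparisons and 2 differences of differences). On simulated data with 200 changed genes, NC day 11 minus day 0 over 22638 genes, 64% of changes of 1 and 99% of changes of 2 on the log2 scale were recovered, with 5 false calls. The real comparison called 6643 genes, far more than were changed here, so these rates need not carry over to it.

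The named genes were the 8 members, up to 4 differing genes of each glial list with the largest change in each day 11 comparison, and the 3 genes with the highest correlation to each member. One gene that this rule names is not reported here. The members and lists were chosen with earlier results of these data known. Same-numbered arrays deviated together in every pair (correlation over 0.1) in 7 of the 26 comparisons between groups. The alternatives were the authors' values, median scaling, no background correction, an offset of 50, a detection p under 0.01, no detection filter, the mean of probes, only the groups compared, the replicate number as a block, and leaving out each array.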

Additional observations from a re-analysis of the deposited data

Results flagged for a closer look

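The change from day 3 to day 11 differed between NC and DSi for 5 of the 6 tested genes (5.46% of all genes), by limma's test of the difference itself, and for 3 with only the groups compared. ERBB3 rose in NC and fell in DSi, a difference of 3.88 (SE 0.37, adjusted p = 6.24e-11), and BCAN gave 3.13 (SE 0.43, adjusted p = 5.53e-07). EGR2 gave 1.36 (SE 0.38, adjusted p = 0.0216) and PMP22 1.39 (SE 0.43, adjusted p = 0.0454). The EGR2 call was lost without DSi day 3 replicate 1, DSi day 11 replicate 3 or NC day 3 replicate 2, and with only the groups compared (0.096), and the PMP22 call under 7 of 9 settings and on leaving out any of 9 of the 12 arrays, all but DSi day 3 replicate 2, DSi day 11 replicate 3 and NC day 3 replicate 1 (up to 0.193). FABP7 gained less in NC, by -1.55 (SE 0.38, adjusted p = 0.00661).

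The change from day 8 to day 11 differed between BE and NC for 4 of the 6 (2.41% of all genes). BCAN gained more in BE by 2.48 (SE 0.43, adjusted p = 9.08e-05), MBP by 2.63 (SE 0.39, adjusted p = 5.43e-06) and PMP22 by 1.63 (SE 0.43, adjusted p = 0.0239). The PMP22 call was lost without NC day 8 replicate 1 or 3, NC day 11 replicate 1 or 2, BE day 8 replicate 3 or BE day 11 replicate 3 (up to 0.129). EGR2 gained in NC and not in BE, a difference of -1.88 (SE 0.38, adjusted p = 0.00124).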

How the results depend on the processing

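Of 168 differences tested for the 6 genes 88 passed, 75 of these under each of the 9 alternatives and 71 also with each array left out, and 0 changed direction. The calls against day 0 numbered 39 (38 to 41 with 1 array left out), those by step 17 (15 to 18), NC against DSi 6 (6 to 7), BE against DSi 9 (8 to 9), and the other glial genes 119 (106 to 118). BE against NC gave 8 (5 to 8), with 5 without NC day 8 replicate 1, BE day 8 replicate 1 or BE day 8 replicate 2. The change from day 3 to 11 in NC against DSi gave 5 (3 to 5), with 3 without DSi day 3 replicate 1 or NC day 3 replicate 2, and 3 with only the groups compared. The change from day 8 to 11 in BE against NC gave 4 (3 to 4). With the replicate number as a block 88 calls were kept, 0 lost and 4 gained: PMP22 from DSi day 3 to 6, MBP in NC against DSi at days 6 and 8, and ERBB3 at BE day 11 against day 0 (adjusted p = 0.043). Over all genes, median scaling gave 1565 in place of 3291 from DSi day 3 to 6, 714 in place of 1182 from NC day 6 to 8, 1319 in place of 2180 from BE day 8 to 11, and for NC against DSi 49 in place of 111 at day 3, 604 in place of 1225 at day 6 and 1562 in place of 2523 at day 11. The same setting gave 784 in place of 1237 for the change from day 3 to 11 in NC against DSi. With only the groups compared, DSi day 8 to 11 gave 985 in place of 1562, NC against DSi 44 at day 3 and 1671 at day 11, and its change from day 3 to 11 798. With 1 array left out, day 1 against day 0 fell to 611 from 1000, NC against DSi at day 3 to 66, DSi day 6 to 8 to 82 from 218, DSi day 8 to 11 to 981, NC day 6 to 8 to 711 and BE against NC at day 8 to 254 from 420. The cause was not tested. Median scaling moved the median difference of all genes by over 0.1 in 10 comparisons, from -0.159 for day 1 against day 0 to 0.215 for the change in BE against NC. Signal over background limits EGR2, BCAN and the dim probes, and the authors' values gave smaller differences (median ratio 0.442).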
